A study of Mus musculus with 8 samples.

Results

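The 10 genes of phosphate transport and pyrophosphate turnover described here were measured in the epididymal fat, a white adipose depot of the abdomen, of male mice with and without a conditional deletion of the aromatase gene. They were taken by symbol from the deposited table: Slc20a1, Slc20a2, Xpr1, Enpp1, Alpl, Ank, Ppa1, Ppa2, Slc25a3 and Acp5, which are 10 of 34866 genes, and all 10 passed the low-count filter. Both groups carried Cyp19a1, the gene of aromatase, flanked by loxP sites on both copies. For the 4 control libraries (flox) the labels name no other allele, and the other 4 (aP2-Cre;flox) expressed Cre under aP2 (Fabp4) control, which is active in adipocytes and also in some macrophages. Mice with Cre and unfloxed Cyp19a1 were not analysed here, and effects of Cre and of the deletion cannot be told apart. The ages of the animals are not given in the sources used here. The stated question was which genes downstream of adipose aromatase take part in phosphorus metabolism.

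Cells take up inorganic phosphate from outside through sodium-dependent carriers, release it through an exporter, and pass it into mitochondria for ATP synthesis. Pyrophosphate, a pair of linked phosphates, is made outside the cell from ATP, is a strong inhibitor of mineral deposition, and is split into phosphate by alkaline phosphatase. Inside the cell pyrophosphate is a by-product of fatty acid activation and nucleic acid synthesis, and soluble pyrophosphatases remove it.

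The libraries were 3′-end libraries (BRB-seq) with 1538427 to 3053565 estimated counts each, and levels are given as CPM, the counts of a gene scaled to a common library size with TMM factors. A count of 0 allows up to 3 counts, which is 0.982 to 1.95 CPM depending on the library and covers counting error only. The 10 adipocyte markers examined were tested in all libraries and summed to 60718 to 79037 CPM (control) and 51196 to 75700 CPM (aP2-Cre). Of 6 epididymis markers 4 were at 0 in every library and Spint4 had 1 count in all. The remaining marker, Adam7, had 33 counts in all, with up to 3.77 CPM in a control and 8.53 CPM in an aP2-Cre library. Cyp19a1 (chromosome 9, 54165937 to 54268110) had 2, 1, 5 and 1 counts in control replicates 1 to 4 and 0, 4, 2 and 2 in aP2-Cre replicates 1 to 4, too few for the deletion to be checked here. In bulk tissue, fewer cells of a type and less RNA per cell cannot be told apart. The labels do not say that the libraries come from separate animals, so p-values measure the spread between these libraries.

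By edgeR's quasi-likelihood test 0 of the 10 genes were past the adjusted threshold of 0.05, beside 0.168% of the 12480 genes tested (21 genes; 0.12% higher and 0.0481% lower in the aP2-Cre libraries). At an unadjusted p under 0.05 there was 1, Enpp1, which was higher, beside 6.39% of all tested genes in either direction and 3.52% higher. Libraries of the genotypes did not overlap for the same 1 gene, beside 4.21% of all tested genes, 2.48% higher and 1.74% lower. DESeq2 and limma-voom likewise gave 0 genes past an adjusted p of 0.05 and 1 gene with an unadjusted p under 0.05. The fitted value was higher in the aP2-Cre libraries for 4 genes and lower for 6, with a median log2 fold change of -0.11 beside -0.00 over all tested genes. For 8 of the 10 genes the 95% interval of the log2 fold change lay between -1 and 1, so that a 2-fold difference in either direction was outside it. The exceptions were Enpp1 and Alpl, which had the lowest counts of the 10. Such an interval was reached by 76.9% of all tested genes.

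**Figure D1:**
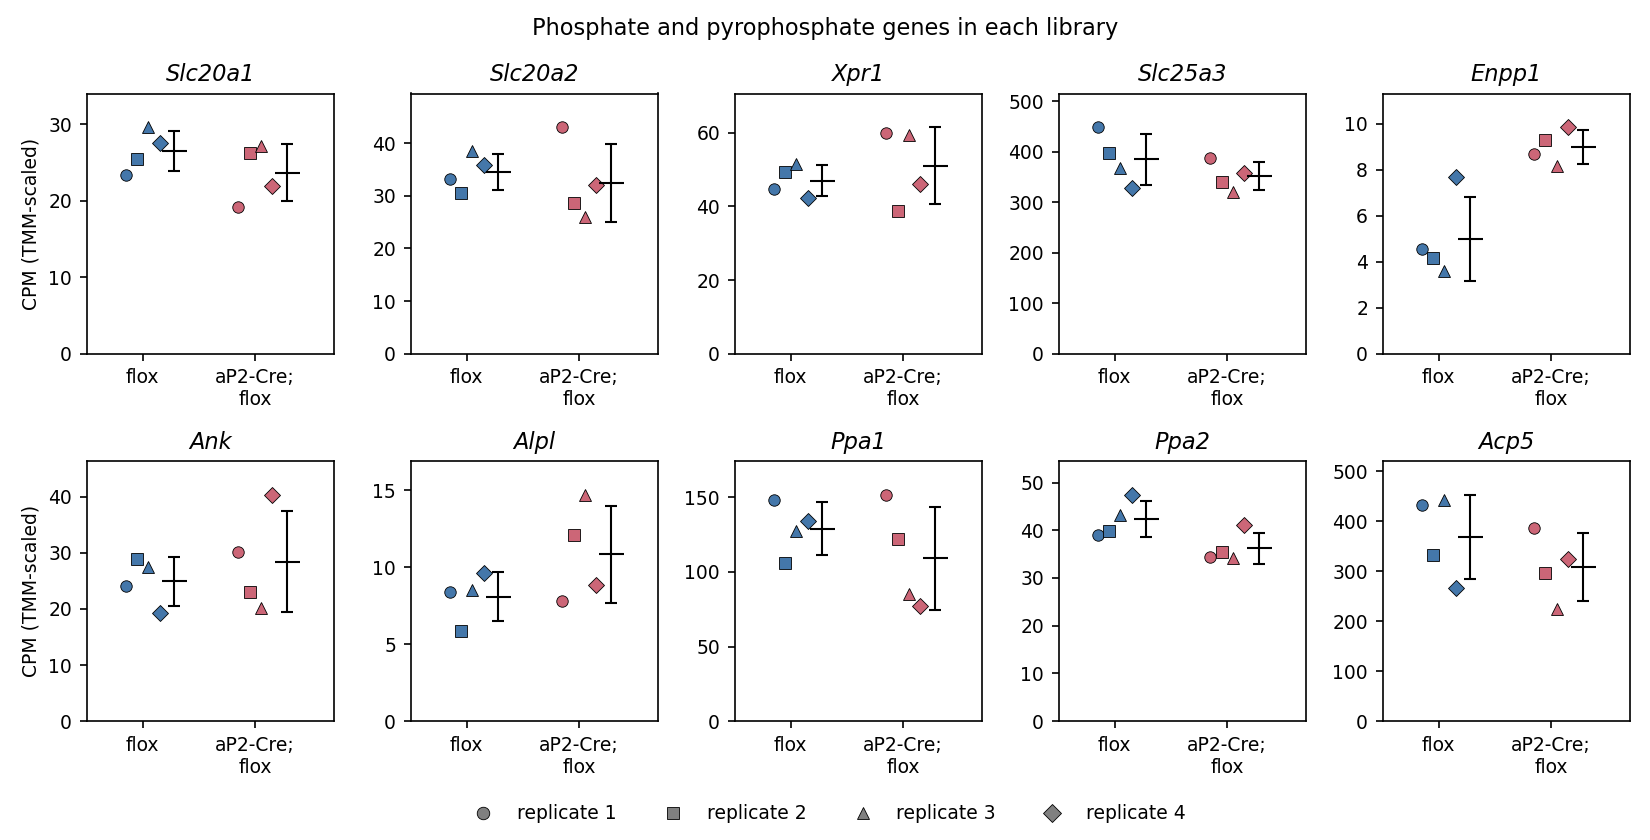
CPM of each gene (vertical axis, from 0) in the 4 flox and the 4 aP2-Cre;flox libraries, with a symbol shape for each replicate number and the mean and SD of each group as a bar to the right of its points. Only the Enpp1 panel shows groups that do not overlap, with a highest control value of 7.69 CPM and a lowest aP2-Cre value of 8.15 CPM.

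Both import carriers had overlapping levels in the genotypes. Slc20a1 (chromosome 2, 129198764 to 129211616), a sodium-phosphate cotransporter known as PiT-1, was at 23.4, 25.5, 29.6 and 27.6 CPM in control replicates 1 to 4 and at 19.2, 26.2, 27.2 and 22.0 CPM in aP2-Cre replicates 1 to 4. The groups overlapped, and only aP2-Cre replicates 1 and 4 lay below the control range. The log2 fold change was -0.16 (95% interval -0.54 to 0.22, edgeR adjusted p = 0.941). Its paralog Slc20a2 (chromosome 8, 22476788 to 22569612), or PiT-2, was at 33.2, 30.5, 38.6 and 35.9 CPM in the control libraries and at 43.0, 28.6, 26.0 and 32.1 CPM in the aP2-Cre libraries. Here aP2-Cre replicate 1 was the highest of all 8 libraries and aP2-Cre replicate 3 the lowest, and the aP2-Cre libraries spanned the whole control range (log2 fold change -0.09, 95% interval -0.47 to 0.29, edgeR adjusted p = 0.968).

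The balance of the paralogs varied more among the aP2-Cre libraries. The log2 ratio of Slc20a1 to Slc20a2 counts within a library, which does not depend on the scaling between libraries, was -0.50, -0.26, -0.38 and -0.38 in the control and -1.15, -0.13, 0.06 and -0.55 in the aP2-Cre libraries. Its mean was -0.38 ± 0.10 and -0.44 ± 0.54 (SD, n = 4 each). The means were close together and the SD was larger among the aP2-Cre libraries, chiefly through replicate 1; this spread was not tested.

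Xpr1 (chromosome 1, 155275701 to 155417415) encodes the phosphate exporter of the cell surface. It was at 44.7, 49.4, 51.6 and 42.3 CPM in the control and at 60.0, 38.7, 59.3 and 46.2 CPM in the aP2-Cre libraries. aP2-Cre replicates 1 and 3 were above every control library and replicate 2 was below every one. The log2 fold change was 0.11 (95% interval -0.23 to 0.45, edgeR adjusted p = 0.949). None of the 8 Xpr1 values was whole in the deposited table, and its transcripts share words of 31 bases with 1550 other genes, with no more than 55 of 17898 in common with a single gene. Its values are thus partly estimates of how reads divide among genes.

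Slc25a3 (chromosome 10, 91116574 to 91124059), the carrier that brings phosphate into the mitochondrial matrix, was at 447.9, 397.9, 366.9 and 327.6 CPM in the control and at 386.9, 340.5, 320.8 and 358.1 CPM in the aP2-Cre libraries. All aP2-Cre values lay below the 2 highest controls, and the groups overlapped. It had the narrowest interval of the 10, a log2 fold change of -0.13 with bounds of -0.39 and 0.12 (edgeR adjusted p = 0.928). Of its 8 values 4 were whole, and its transcripts share words of 31 bases with 334 genes. The most in common with a single gene were 109 of 5703, with the pseudogene Gm13904, which had 1 count over all libraries. Its values are thus also partly estimates. In the same libraries 0 of 11 nuclear genes of the respiratory chain had a higher fitted value and 0 passed an adjusted p of 0.05; their median log2 fold change was -0.15, beside -0.00 over all tested genes.

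Enpp1, Ank and Alpl, the genes among the 10 that act on pyrophosphate outside the cell, had positive fitted values, that of Ank turning negative without 1 library, and none passed the adjusted threshold. Enpp1 (chromosome 10, 24637914 to 24712159) encodes the ectoenzyme that splits ATP into AMP and pyrophosphate. It had 13, 10, 8 and 12 counts in control replicates 1 to 4 and 19, 23, 21 and 30 in aP2-Cre replicates 1 to 4, or 4.54, 4.18, 3.59 and 7.69 CPM against 8.70, 9.28, 8.15 and 9.84 CPM. Every aP2-Cre library was above every control library, and control replicate 4, the smallest library, stood nearest to the aP2-Cre range. The means were 5.00 ± 1.84 and 8.99 ± 0.730 CPM (SD, n = 4 each). The fitted difference was 1.84-fold with a 95% interval of 1.10 to 3.07 that takes no account of the number of genes tested. Enpp1 ranked 427 of 12480 genes by p (unadjusted p = 0.0239, edgeR adjusted p = 0.689).

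The size of the Enpp1 difference depended on single libraries, while its direction did not. Without control replicate 4 the log2 fold change went from 0.88 to 1.12 (edgeR adjusted p = 0.437), and without control replicate 3 it went to 0.76 (edgeR adjusted p = 0.977). Its adjusted p lay between 0.437 and 0.977 over the 14 alternatives. Of the 8 Enpp1 values 1 was whole, and its transcripts share words of 31 bases with 926 genes, with no more than 36 of 10300 in common with a single gene, so the same holds for its few counts.

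The 250 bases before the annotated Enpp1 start are shown because Enpp1 is the gene of the 10 whose libraries did not overlap, and those before the 3 annotated Acp5 starts because the 3′-end counts of Acp5, described below, cannot tell these starts apart. Sequences are RefSeq's, build GRCm38.p6, minus strand, 5′ to 3′, at chr10:24712160-24712409 for Enpp1 and at chr9:22135747-22135996, chr9:22131866-22132115 and chr9:22130599-22130848 for Acp5 starts 1 to 3. Capitals mark GGTCA, the half-site of the oestrogen response element, and GGGCGG, a GC box, on either strand.
Enpp1: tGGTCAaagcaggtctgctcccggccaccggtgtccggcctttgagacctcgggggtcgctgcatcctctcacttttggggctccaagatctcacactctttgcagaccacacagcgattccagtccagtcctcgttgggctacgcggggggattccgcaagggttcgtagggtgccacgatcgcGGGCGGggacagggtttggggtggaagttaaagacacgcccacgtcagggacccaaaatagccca
Acp5 start 1: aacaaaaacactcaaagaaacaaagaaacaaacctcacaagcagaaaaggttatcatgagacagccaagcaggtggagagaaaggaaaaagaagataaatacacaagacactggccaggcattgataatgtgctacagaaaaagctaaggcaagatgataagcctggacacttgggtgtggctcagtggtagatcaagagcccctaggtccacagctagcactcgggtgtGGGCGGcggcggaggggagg
Acp5 start 2: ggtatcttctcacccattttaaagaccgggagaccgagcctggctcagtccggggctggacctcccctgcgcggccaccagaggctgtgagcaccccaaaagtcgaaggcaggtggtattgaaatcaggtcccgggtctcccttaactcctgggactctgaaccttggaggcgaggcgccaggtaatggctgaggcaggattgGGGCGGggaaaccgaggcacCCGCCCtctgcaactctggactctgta
Acp5 start 3: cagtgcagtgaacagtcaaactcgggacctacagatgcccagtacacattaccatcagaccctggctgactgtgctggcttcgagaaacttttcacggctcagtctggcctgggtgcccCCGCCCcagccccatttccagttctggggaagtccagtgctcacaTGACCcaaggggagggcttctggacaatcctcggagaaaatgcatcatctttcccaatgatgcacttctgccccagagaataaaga
The table held 13 such windows for 9 of the 10 genes, and none for Slc20a2. The whole palindromic oestrogen response element, GGTCA and its inverted repeat 3 bases apart, was in 0 of the 13 windows, beside 0.0639% of all 32851 windows of that length. GGTCA, which that element contains, was in 8 of 13 against 35.2% of all windows, GGGCGG in 12 of 13 against 32.7%, and TATAAA in 1 of 13 against 12.4%, each counted on both strands. GAGGAA, the core of the PU.1 motif, was in 1 of 13 against 23.3%. Some of the 13 windows belong to the same gene, and their GC content ran from 48% to 81.2%. GC content was not matched between them and all windows, and the differences in share were not tested. These are matches of letters and not sites of binding.

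Ank (chromosome 15, 27466677 to 27594909), also called Ankh, encodes a membrane protein needed for release of ATP and pyrophosphate from cells. It was at 24.1, 28.9, 27.4 and 19.2 CPM in the control and at 30.2, 23.0, 20.2 and 40.3 CPM in the aP2-Cre libraries. The highest value, in aP2-Cre replicate 4, set the sign of the difference: the log2 fold change was 0.19 (95% interval -0.29 to 0.67, edgeR adjusted p = 0.943) and -0.04 without that library.

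Alpl (chromosome 4, 137741733 to 137796384), tissue-nonspecific alkaline phosphatase, splits pyrophosphate outside the cell. It had 14 to 24 counts in the control and 17 to 38 in the aP2-Cre libraries, or 8.39, 5.86, 8.52 and 9.62 CPM against 7.78, 12.1, 14.7 and 8.85 CPM. aP2-Cre replicates 2 and 3 were above every control library and the other two were within the control range. The log2 fold change was 0.43 with a 95% interval of -0.24 to 1.10 (edgeR adjusted p = 0.91), so a 2-fold higher level was within it. The log2 ratio of Enpp1 to Alpl counts was -0.71 ± 0.40 in the control and -0.23 ± 0.48 in the aP2-Cre libraries (SD, n = 4 each), and the groups overlapped. It was highest, at 0.16 and 0.15, in aP2-Cre replicates 1 and 4, where Alpl was lowest among the aP2-Cre libraries. Neutrophils and osteoblasts are known sources of Alpl. Of 6 neutrophil markers Ly6g was at 0 in all libraries, Retnlg had 3 counts over the 8 libraries, S100a9 5, Csf3r 45, S100a8 93 and Cxcr2 550. Of 6 osteoblast markers Bglap, Bglap2 and Ibsp had 1 count each, Sp7 3, Dmp1 10 and Runx2 93. The neutrophil list summed to between 30.9 and 34.6 CPM (control) and between 33.1 and 44.6 CPM (aP2-Cre). The osteoblast list summed to between 2.56 and 8.52 CPM (control) and between 4.26 and 8.53 CPM (aP2-Cre). Over the 8 libraries together most of these counts were Cxcr2 and Runx2, though Runx2 was at only 0.641 CPM in its lowest control library. The part of these cells in the Alpl values was not tested.

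The soluble pyrophosphatases had negative fitted values. Ppa1 (chromosome 10, 61648552 to 61674168), the enzyme of the cytosol, was at 148.5, 106.3, 127.4 and 134.0 CPM in the control and at 151.6, 121.8, 85.3 and 77.4 CPM in the aP2-Cre libraries. The aP2-Cre libraries held both the highest and the 2 lowest values, and their coefficient of variation was 31.5% against 13.6% in the control libraries. The log2 fold change was -0.25 (95% interval -0.68 to 0.19, edgeR adjusted p = 0.922). Without aP2-Cre replicate 1 it was -0.44 (edgeR adjusted p = 0.749), and without aP2-Cre replicate 4 it was -0.11.

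Ppa2 (chromosome 3, 133310110 to 133378235), the mitochondrial pyrophosphatase, was at 39.1, 39.8, 43.1 and 47.4 CPM in the control and at 34.3, 35.5, 34.1 and 41.0 CPM in the aP2-Cre libraries. Of the aP2-Cre libraries 3 lay below every control library, and replicate 4 lay within the control range. The log2 fold change was -0.22 (95% interval -0.52 to 0.09, edgeR adjusted p = 0.909). The log2 ratio of Ppa1 to Ppa2 was 1.60 ± 0.22 in the control and 1.53 ± 0.53 in the aP2-Cre libraries (SD, n = 4 each), running from 0.91 in aP2-Cre replicate 4 to 2.13 in aP2-Cre replicate 1.

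**Figure D2:**
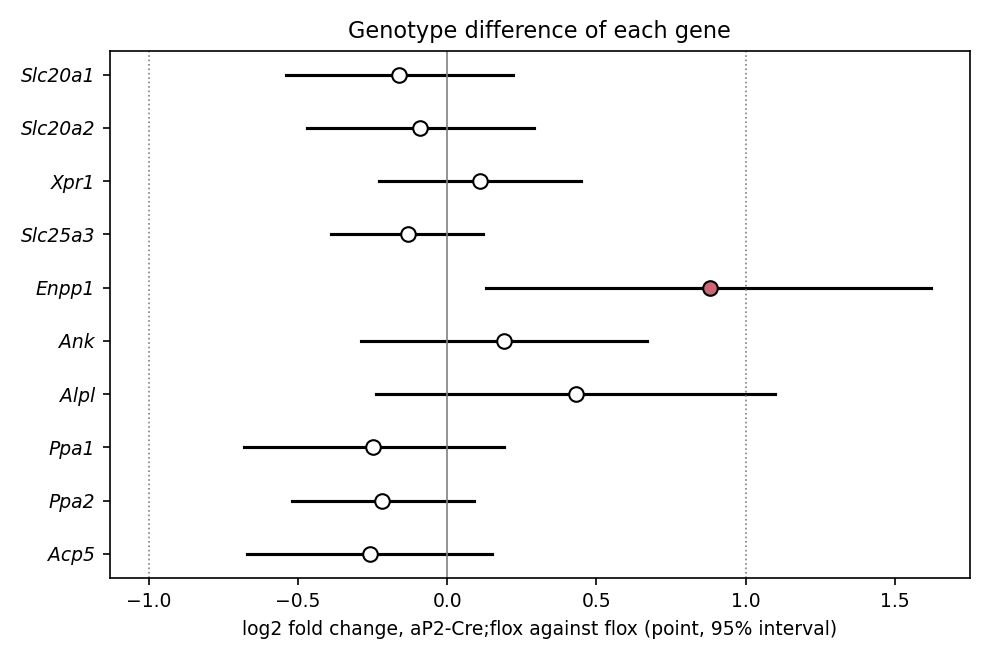
Log2 fold change of each of the 10 genes, aP2-Cre;flox against flox (horizontal axis), with its 95% interval from the edgeR fit as a line; dotted lines mark a 2-fold difference and the filled point is the gene whose libraries did not overlap. The Enpp1 interval, 0.13 to 1.62, is the one that lies wholly on one side of 0, and no gene passed the adjusted threshold.

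Acp5 (chromosome 9, 22126727 to 22135711) encodes tartrate-resistant acid phosphatase, an enzyme best known as a marker of osteoclasts and also made by macrophages. It was at 431.8, 332.2, 443.1 and 267.3 CPM in the control and at 386.5, 296.1, 223.4 and 325.3 CPM in the aP2-Cre libraries. The values overlapped widely, with control replicate 4 and aP2-Cre replicate 3 the lowest. The log2 fold change was -0.26 (95% interval -0.67 to 0.15, edgeR adjusted p = 0.91), and it ran from -0.39 without control replicate 4 or without aP2-Cre replicate 1 to -0.14 without aP2-Cre replicate 3.

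Most macrophage markers had fitted values of the opposite sign to Acp5. Of 12 macrophage genes tested 10 had a higher fitted value and Lyz2, Ctss and Cd68 rose past an adjusted p of 0.05, with log2 fold changes of 0.85, 1.21 and 1.13 (edgeR adjusted p = 0.00776, 0.000666 and 0.0156); the list's median was 0.32. Of 8 markers of lipid-associated macrophages, cells that take up lipid in fat tissue, 6 had a higher fitted value and Mmp12 and Gpnmb rose (edgeR adjusted p = 0.000147 and 0.0152), with a list median of 1.09. The 13 macrophage markers listed summed to between 1017 and 1164 CPM (control) and between 1491 and 1935 CPM (aP2-Cre). The 8 lipid-associated ones summed to 8118 to 11530 CPM (control) and 7842 to 11704 CPM (aP2-Cre), but nearly all of this was Lpl, the lipoprotein lipase gene that adipocytes also express strongly, at 7751 to 11087 and 7284 to 11145 CPM. Of the others, Fabp5 was at 169.2 to 270.0 CPM (control) and 163.3 to 274.7 CPM (aP2-Cre), with a log2 fold change of -0.00. Cd9 was at 77.2 to 118.6 and 110.9 to 131.5 CPM (log2 fold change 0.26), and neither passed. Mmp12 was at 23.4 to 34.0 CPM (control) and 96.0 to 159.8 CPM (aP2-Cre), and Gpnmb at 12.2 to 22.9 and 37.9 to 71.4 CPM. Trem2, a lipid receptor gene, was at 4.93 to 10.0 and 16.1 to 25.2 CPM. The part of the macrophage and adipocyte markers in the Acp5 and Enpp1 values was not tested.

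The macrophage genes were not alike: Cd163, a scavenger receptor gene, had a log2 fold change of -0.19, Mertk, a receptor gene for uptake of dead cells, -0.06, and the complement gene C1qc 0.11, and none of these passed. Acp5 log2 CPM minus the mean of the 12 tested macrophage genes, a measure chosen after the values had been seen and not tested, was 2.59, 2.43, 2.75 and 2.29 in the control and 2.33, 1.79, 1.55 and 1.71 in the aP2-Cre libraries. The groups overlapped, since aP2-Cre replicate 1 lay above control replicate 4, and their means differed by -0.67. Acp5 minus the lipid-associated list (-1.16), Cd68 (-1.42), Lyz2 (-1.10) or Ctss (-1.44) did not overlap between the genotypes. Cd68, Lyz2 and Ctss are the macrophage genes that had passed, and the lipid-associated list holds Mmp12 and Gpnmb, which also passed. The means of that list did not overlap either, at 5.44 to 5.76 (control) and 6.36 to 6.62 (aP2-Cre). These differences thus include the rise of the genes subtracted, and an unchanged gene could show the same. The share of all tested genes without overlap in such differences was not computed. The differences were not tested either.

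Osteoclast genes other than Acp5 were examined beside it. Calcr, the calcitonin receptor gene that marks mature osteoclasts, had 2 counts over the 8 libraries, Oscar 6, Dcstamp 20 and Ocstamp 81. Atp6v0d2, a proton pump subunit gene, was at 3.21 to 7.62 CPM (control) and 10.1 to 19.2 CPM (aP2-Cre), without overlap (log2 fold change 1.51, edgeR adjusted p = 0.151). Ctsk, the cathepsin K gene, was at 12.2 to 22.0 CPM (control) and 19.0 to 31.8 CPM (aP2-Cre). The log2 fold changes of Tnfrsf11a, the gene of the receptor RANK, Nfatc1, a transcription factor gene, and Mmp9, a gelatinase gene, were 0.61, 0.21 and -0.08. Of the 5 osteoclast genes tested 4 had a higher fitted value and none passed an adjusted p of 0.05. All 9 osteoclast genes listed summed to 59.0 to 82.5 CPM (control) and 96.2 to 116.6 CPM (aP2-Cre), whereas Acp5 had a negative fitted value.

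Across libraries Acp5 followed adipocyte genes, though only the adipocyte and respiratory chain lists were compared in this way. Its log2 CPM correlated with the mean log2 CPM of the 10 adipocyte markers at r = 0.97 over the 8 libraries (exact permutation p = 0.000174, adjusted p = 0.00278 over 16 relations) and at rho = 0.98 (exact permutation p = 0.000397, adjusted p = 0.00635). It was 0.97 without control replicate 1 and aP2-Cre replicate 3, the libraries farthest from the median of the list, and 0.96 and 0.99 among the 4 control and the 4 aP2-Cre libraries taken alone, each too few to test. With the mean of the 11 respiratory chain genes r was 0.85 (exact permutation p = 0.00937, adjusted p = 0.05), and 0.68 without the same 2 libraries. The adipocyte and respiratory chain lists were compared with each of the 8 genes whose mean was at least 20 CPM, which gives the 16 relations. Both lists were chosen for this after the data had been seen, and the adjusted p does not cover that choice. The points share their library and its scaling. No r was computed with the macrophage, osteoclast or other marker lists. In control replicates 1 to 4 the osteoclast list mean, at 3.83, 3.65, 3.93 and 3.17, ranked the libraries as Acp5 did. In aP2-Cre replicates 1 to 4, at 4.24, 4.31, 3.90 and 4.26, it did not. The share of all tested genes with such an r was not computed. The relations here and below are thus not shown to be particular to these genes.

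**Figure D3:**
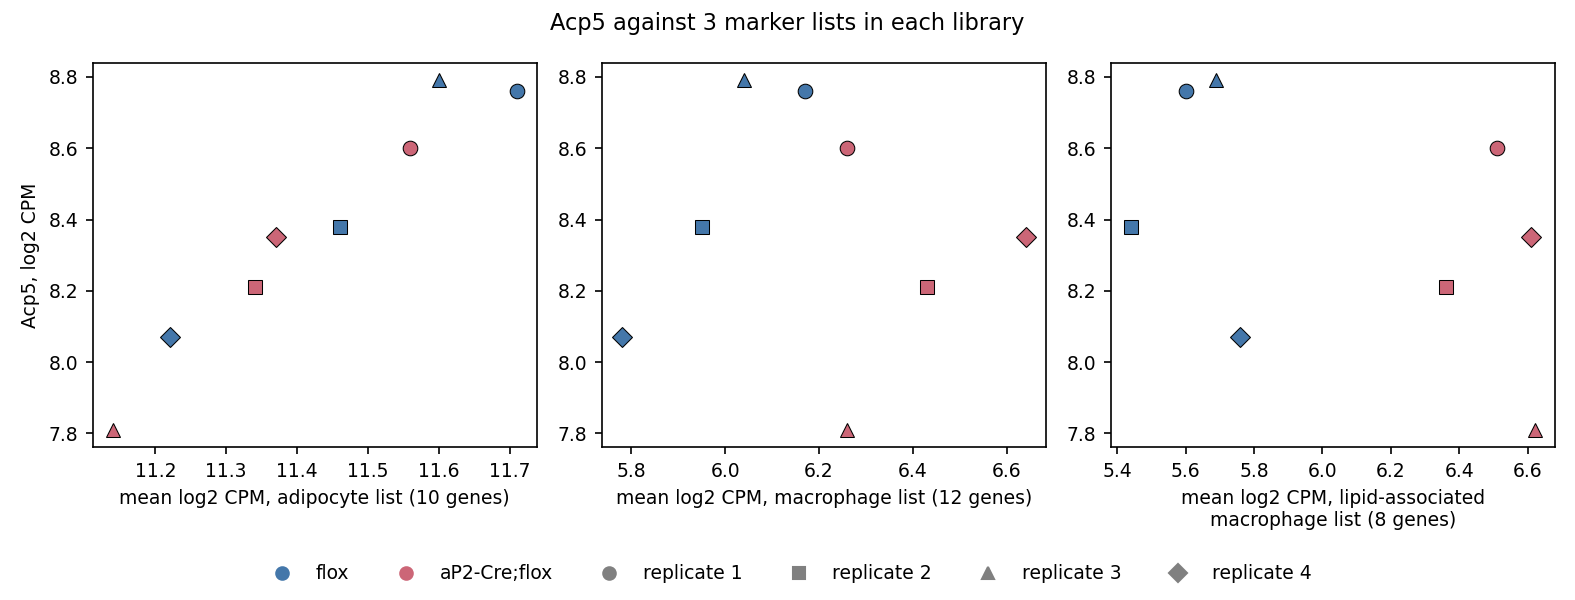
Acp5 (vertical axis, log2 CPM) against the mean log2 CPM of adipocyte, macrophage and lipid-associated macrophage marker lists (horizontal axes) in the 4 flox and 4 aP2-Cre;flox libraries; axes do not start at 0. In the left panel the 8 points lie near one line (r = 0.97), and in the other panels the genotypes stand apart along the horizontal axis while their Acp5 levels overlap.

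Of the other genes, Slc25a3 also passed with the adipocyte list, at r = 0.90 (exact permutation p = 0.0026, adjusted p = 0.0208) and rho = 0.90 (exact permutation p = 0.00456, adjusted p = 0.0365); r was 0.77 without the same 2 libraries. The other 6 genes did not pass with either list by r. Among them Ppa1 came nearest with the respiratory chain list, at r = 0.82 (exact permutation p = 0.015, adjusted p = 0.0599) and 0.70 without those libraries. Slc20a1 had r = -0.34 with the adipocyte list (exact permutation p = 0.411, adjusted p = 0.658), Xpr1 0.04 (exact permutation p = 0.919, adjusted p = 0.958) and Ppa2 0.02 (exact permutation p = 0.958, adjusted p = 0.958).

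The genes with the most similar pattern over the 8 libraries were sought among 7437 tested genes with a mean of at least 20 CPM, by the Pearson r of log2 CPM, as a description of these libraries. Each gene searched had a highest r of at least 0.957, so a high r does not set any of them apart. For Acp5 they were Hadhb (r = 0.987) and Decr1 (r = 0.973), enzymes of fatty acid oxidation, and Mdh2 (r = 0.986), the mitochondrial malate dehydrogenase. Ppa1 was nearest to Hibadh (r = 0.962), of valine breakdown, Ptges2 (r = 0.961) and Acacb (r = 0.959), an acetyl-CoA carboxylase. Slc25a3 was nearest to Mrps34 (r = 0.967), a mitochondrial ribosomal protein gene, followed by Ppp6c (r = 0.963) and Nap1l4 (r = 0.941).

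Slc20a2 was nearest to Sfxn5 (r = 0.996), a mitochondrial sideroflexin gene, Npepps (r = 0.952) and Arih1 (r = 0.947). Slc20a1 was nearest to Miga1 (r = 0.962), whose product acts in mitochondrial fusion, Lgals3bp (r = 0.954) and Cgrrf1 (r = 0.945). For Xpr1 they were Snrpc (r = 0.969), a splicing gene, Nagk (r = 0.925) and 0610010F05Rik (r = 0.922). Ank was followed most closely by Tcea1 (r = 0.974), a transcription elongation factor gene, Ccng1 (r = 0.973) and Bet1l (r = 0.963), and Ppa2 by the linker histone gene H1fx (r = 0.957), Fam91a1 (r = 0.939) and Marc2 (r = 0.935). Over the 28 pairs of these 8 genes r ran from -0.58 for Slc20a1 with Ank to 0.80 for Slc25a3 with Acp5.

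The other genes of phosphate and pyrophosphate handling were taken from a list of 58 symbols, of which 57 were found in the table and 31 were tested. With edgeR 0 of them were past the adjusted threshold (0.168% of all tested genes), 1 had an unadjusted p under 0.05 (6.39%), and 17 had a higher and 14 a lower fitted value (median log2 fold change 0.06, beside -0.00 over all tested genes). On the same 31 genes limma-voom gave 0 and 2. DESeq2, run without the low-count filter on 56 genes of the list, gave 0 and 1. With edgeR and no such filter the 56 genes gave 0 and 4. The kidney and gut sodium-phosphate cotransporters Slc34a1, Slc34a2 and Slc34a3 were removed by the low-count filter, with 8, 53 and 1 counts over all libraries. Of the 9 tested genes that act on pyrophosphate or ATP outside the cell, 3 had a higher and 6 a lower fitted value. Among the relatives of Enpp1 the log2 fold changes were -0.11 for Enpp2 (autotaxin, which makes lysophosphatidic acid; 95% interval -0.39 to 0.16), -0.02 for Enpp3, -0.00 for Enpp4, -0.03 for Enpp5 and 0.55 for Enpp6 (95% interval -0.40 to 1.51), the last with 105 counts in all. The difference between Enpp1 and its relatives was not tested.

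Among phosphatases 2 had a higher and 5 a lower fitted value. The lysosomal acid phosphatase gene Acp2 had means of 60.7 ± 8.48 CPM (control) and 57.2 ± 4.28 CPM (aP2-Cre; SD, n = 4 each; log2 fold change -0.08, edgeR adjusted p = 0.957), and Acp1, a low-molecular-weight phosphatase, means of 110.9 ± 4.91 and 100.3 ± 14.4 CPM (SD, n = 4 each; log2 fold change -0.14, edgeR adjusted p = 0.922). The 3 tested ATP-Mg/phosphate carriers of mitochondria, Slc25a23, Slc25a24 and Slc25a25, had positive log2 fold changes of 0.09, 0.28 and 0.20, opposite in sign to Slc25a3, and none passed.

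Of 9 tested hormones and sensors of phosphate 8 had a higher fitted value, beside 49.7% of all tested genes. Their median log2 fold change was 0.15. By edgeR 1 of the 9 had an unadjusted p under 0.05, and 0 passed the adjusted threshold. Sfrp4, a secreted Wnt inhibitor that promotes phosphate loss in the kidney, had the smallest p of the list. It was at 4.54, 2.51, 4.04 and 3.85 CPM in the control and at 6.41, 8.07, 5.82 and 15.7 CPM in the aP2-Cre libraries, with no overlap and with aP2-Cre replicate 4 the highest (log2 fold change 1.27, 95% interval 0.37 to 2.17, edgeR adjusted p = 0.52). Without that library the log2 fold change was 0.84. Spp1, the osteopontin gene, which is also a marker of lipid-associated macrophages, was at 5.59, 4.60, 5.38 and 18 CPM in the control and at 13.3, 13.7, 15.5 and 12.5 CPM in the aP2-Cre libraries, where control replicate 4 was above every aP2-Cre library (log2 fold change 0.78, edgeR adjusted p = 0.813; 1.39 and adjusted p = 0.0931 without that library). Entpd2, an ectonucleotidase gene, had a log2 fold change of -0.27 (95% interval -0.57 to 0.03, edgeR adjusted p = 0.819).

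**Figure D4:**
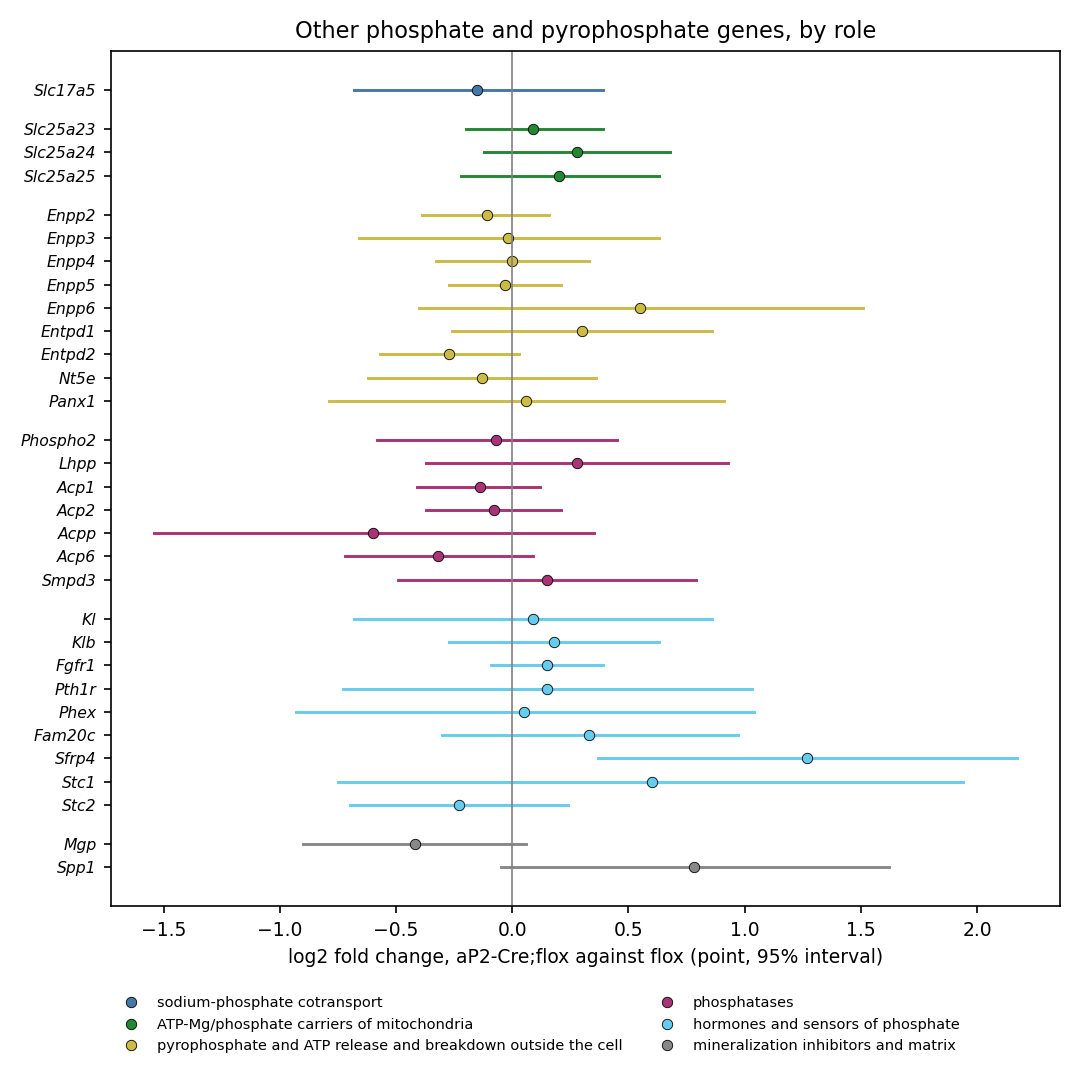
Log2 fold change, aP2-Cre;flox against flox (horizontal axis), with 95% intervals for the 31 tested genes of the wider list, coloured by role. The Sfrp4 interval, 0.37 to 2.17, lies wholly above 0, and the median of the list is 0.06.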

How the data were processed

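RNA of epididymal fat was sequenced in 8 libraries, 4 per genotype. Per the labels' protocols, BRB-seq libraries were primed with oligo-dT, tagmented, amplified by 10 cycles of PCR and read for 51 bases. The authors deposited estimated counts per gene, unscaled; the submitters' processing notes name Salmon and GRCm38, and the version, annotation and use of molecular identifiers are not given in the sources used here. Of values above 0, 59.6% were whole. Identifiers without version were matched to GENCODE M21 (34652 of 34866), which gave symbols and coordinates.

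Counts were rounded, since they were estimates, and tested with edgeR 4.0.16 in R 4.3.3 (robust quasi-likelihood F test, genotype as the only term, TMM factors, filterByExpr, 12480 genes, Benjamini-Hochberg adjustment over all). Intervals (95%) are the log2 fold change and its standard error at the fit's degrees of freedom. Marker lists are means of log2 CPM with a prior count of 2, and ratios within a library had 0.5 counts added to each gene. Correlations were tested by enumerating all orders of the 8 libraries. The test was checked on simulated data. Alternatives were RLE factors, no filter, DESeq2 1.42.0, limma-voom 3.58.1, unrounded counts, the replicate number as a block and leaving out each library. Replicate pairs differed by more than sampling noise (chi-square per degree of freedom 4.48 to 9.4).

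The 10 genes and the lists were chosen with earlier results of these data known. Named beside the 10 are genes of the wider list with an unadjusted p under 0.05, its 3 smallest p, relatives of the 10, and, for each of the 10 with a mean of at least 20 CPM, the 3 genes of highest r. Further marker genes were named after their values were seen. The Acp5 differences and list correlations were added after seeing the data.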

Additional observations from a re-analysis of the deposited data

Results flagged for a closer look

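For groups of 4 libraries, the distance of the highest or lowest library to its neighbour was compared with Dixon's critical value. This was past in 3 of 60 groups, and chance alone gives about 1 in 20, which is 3. Control replicate 4 was high for Spp1, with 18 CPM beside 4.60 to 5.59 CPM for control replicates 1 to 3. For the 5 tested osteoclast genes, aP2-Cre replicate 3 had a mean log2 CPM of 3.90, while the other aP2-Cre libraries had 4.24 to 4.31; Acp5 was also lowest in that library, at 223.4 CPM. For the osteoblast list, of which Runx2 alone was tested, aP2-Cre replicate 4 had 1.64 and the other aP2-Cre libraries 2.78 to 2.94.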

How the results depend on the processing

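No gene of the 10 and none of the wider list passed an adjusted p of 0.05 under any of the 14 alternatives. Of 140 refitted fold changes of the 10 genes, 139 kept their sign and 1 reversed, Ank without aP2-Cre replicate 4; its range when 1 library was left out was -0.04 to 0.32. Enpp1 had an unadjusted p under 0.05 in 10 of the 14. The count of all genes past the threshold, 21, went to 58 without the low-count filter and 54 with DESeq2, and lay between 4 and 43 with a single library removed, lowest without control replicate 2 and highest without control replicate 4, the smallest library. A replicate block gave 6, and 0 of the 10 genes were among them. The cause of these shifts was not tested. Deviations of same-numbered libraries correlated at 0.25, -0.06, -0.01 and -0.24, and 1 of 4 control libraries correlated best with its own number. The main test therefore took same-numbered libraries as unpaired, though so few correlations cannot exclude a pairing. Differences of the 3 ratios and of the marker list means moved by less than the pooled SD of the genotypes under every alternative run for them, which for the smallest differences includes a change of sign: with 1 library left out Slc20a1 to Slc20a2 ran from -0.23 to 0.18 and Ppa1 to Ppa2 from -0.26 to 0.15, and the neutrophil, endothelial and mesothelial lists also changed sign. The stromal progenitor list, at 0.05, went to -0.00 without control replicate 1 or without aP2-Cre replicate 4. The low counts of Enpp1 and Alpl limit what could be detected for them.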
